A study of Homo sapiens with 15 samples.

Results

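The S100 genes encode small calcium-binding proteins, and 10 of them were chosen by name from the 23368 genes of the deposited count table: S100A2, S100A3, S100A4, S100A6, S100A8, S100A9, S100A10, S100A11, S100A16 and S100P. RNA-seq was done on 15 libraries from 3 single-cell clones of breast cancer cells that carried RBM47, an RNA-binding protein, under a doxycycline-inducible promoter. Clones WT6 and WT10 carried wild type RBM47, clone MUT3 carried the frameshift mutant RBM47-I281fs, whose protein the study describes as poorly expressed, and each clone was left untreated (0 ng/ml) or given 1, 2.5, 5 or 25 ng/ml doxycycline. Every clone and dose had 1 library, so the spread behind each test is the scatter of single libraries around a dose line. The labels name MDA231 as the line of all 3 clones, whereas the study's methods derive WT10 and MUT3 from a brain-metastatic derivative of it and WT6 from CN34-BrM2, another brain-metastatic line. By those methods WT6 and WT10 differ in clone and line, and WT10 and MUT3 in clone and transgene, and within each pair the parts of these cannot be told apart.

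S100 proteins carry a pair of EF-hands and mostly form dimers, and most of them expose a binding face for target proteins when calcium rises. Inside cells they bind annexins, non-muscle myosin and other cytoskeletal proteins, and several are also secreted and act on receptors such as RAGE (AGER) and TLR4. In breast cancer the family is best known for S100A4, tied to motility and metastasis, and for S100A8 and S100A9, the calprotectin subunits of neutrophils and monocytes.

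Libraries held 14955172 to 44771871 reads on genes (median 18152381), so 3 reads, taken as the floor, were worth 1.19 to 4.09 normalized counts. RBM47 itself rose from 257.5 to 10425 normalized counts in WT6, from 167.7 to 19877 in WT10 and from 73.8 to 22084 in MUT3 between 0 and 25 ng/ml. The rise was not even in WT6, where RBM47 stood at 8094 at 2.5 ng/ml and 3966 at 5 ng/ml. The WT6 libraries at 5 and 25 ng/ml stood apart from the other WT6 libraries over all genes, with short transcripts higher and long ones lower, and the S100 dose slopes and the differences between clones are also given without them, in a fit chosen after seeing the data. Of markers of a mesenchymal breast line, VIM was between 50755 and 104639 in every library. SPARC was high in WT10 and MUT3 but at 2.06 to 7.47 in WT6. FN1 went the other way, at 8889 to 21189 in WT6, 862 to 3197 in WT10 and 1987 to 2088 in MUT3. Leukocyte genes PTPRC and LYZ did not exceed 6.18 and 5.18, while CD68 lay between 2090 and 5307.

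The genes sit mostly in 1 cluster. On chromosome 1 of hg19 their order was S100A10 (chr1:151955391-151966335), S100A11 (chr1:152004982-152020383), S100A9 (chr1:153330330-153333499), S100A8 (chr1:153362508-153363549), S100A6 (chr1:153507075-153508720), S100A4 (chr1:153516089-153522612), S100A3 (chr1:153519805-153521734), S100A2 (chr1:153533584-153540366) and S100A16 (chr1:153579362-153585621). All lie on the minus strand except S100A9, and S100P lies alone on the plus strand at chr4:6695605-6698897. S100A3 falls within the longest S100A4 gene model on the same strand, so reads in the shared bases could have been set aside as ambiguous, and the counts of both are uncertain to that extent. S100A6 and S100A11 each overlap 1 unnamed gene on the opposite strand, and the strand setting of the counting was not given in the sources used here.

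The 120 bases just before the annotated start are shown for the member with the highest counts (S100A6), the member whose fitted slope was positive in WT6 and negative in WT10 with the widest gap (S100A4) and the member that differed most between clones (S100P). Capitals mark the TATA box letters TATAAA. Sequences are from RefSeq, placed in hg19 by exact match, and read 5′ to 3′ on the gene's strand.
S100A6 (chr1:153508468-153508587, minus strand): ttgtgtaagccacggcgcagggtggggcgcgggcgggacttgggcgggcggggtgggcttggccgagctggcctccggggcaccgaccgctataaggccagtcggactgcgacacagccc
S100A4 (chr1:153518283-153518402, minus strand): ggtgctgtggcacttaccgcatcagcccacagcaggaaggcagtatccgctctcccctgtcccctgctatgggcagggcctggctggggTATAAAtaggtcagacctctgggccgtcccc
S100P (chr4:6695485-6695604, plus strand): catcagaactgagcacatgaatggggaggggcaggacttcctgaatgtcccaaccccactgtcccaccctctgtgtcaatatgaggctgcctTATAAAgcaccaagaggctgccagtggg
TATAAA began 20 to 40 bases before a listed start, on the gene's strand, in 4 of the 10 genes (S100A4, S100A8, S100A9 and S100P), against 2.31% of the 34788 RefSeq promoters. GGGCGG, the letters of a GC box, was present on either strand of the 250 bases before a start in 6 of 10 genes, against 42.6% of promoters. CCAAT was present in 3 of 10, against 32.0%, and TGANTCA, the AP-1 motif, in 2 of 10 (S100A2 and S100A3), against 6.59%. S100A2, S100A8 and S100A16 had several listed starts, and a match at any of them was counted.

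Per kilobase of transcript (normalized counts divided by the median transcript length of the gene), the untreated order in the plot of levels ran from S100A6 at the top to S100A3, S100A4 or S100P at the bottom of the detected genes. Medians over the 5 doses were, per kilobase, 45069 for S100A6, 18282 for S100A10, 10959 for S100A11 and 4236 for S100A16 in WT6. In WT10 and MUT3 S100A10 and S100A11 changed places: S100A11 stood at 13348 and 14629 per kilobase, above S100A10 at 7389 and 5956, and the ranges over the 5 doses did not overlap. S100A2, S100A4 and S100A3 were between 34.4 and 946 per kilobase in the 3 clones. Neighbours in this order whose ranges overlapped were S100A11 and S100A10, S100P and S100A16, S100A2 and S100P, and S100A3 and S100A4 in WT6, S100A4 and S100A2, and S100A3 and S100A4 in WT10, and S100A4 and S100A2 in MUT3.

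**Figure D1:**
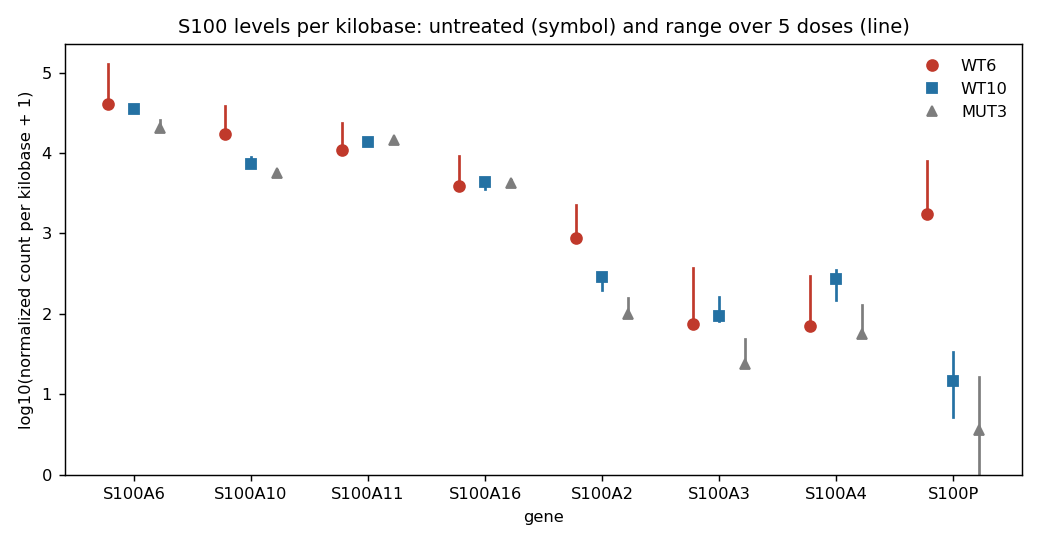
Level of 8 S100 genes per kilobase of median transcript length, as log10(normalized count per kilobase + 1), in the 3 clones. Symbols are the untreated library, lines span the 5 doses, and S100A8 and S100A9, at or near 0, are left out. S100A6 is highest in each clone, and S100P separates WT6 (1651 to 7887 per kilobase) from WT10 (4.24 to 33.0) and MUT3 (0 to 15.6).

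Together the 10 genes took 0.223% of the reads on genes in untreated WT6 cells, 0.204% in WT10 and 0.150% in MUT3. In WT6 this share was 0.237% at 2.5 ng/ml, 0.501% at 5 ng/ml (95% Wilson interval 0.498 to 0.505) and 0.577% at 25 ng/ml (0.573 to 0.581). It lay between 0.203% and 0.216% in WT10 and between 0.150% and 0.171% in MUT3. S100A6 alone made up 41.7% to 59.7% of the family's reads. Intervals on reads cover counting error only.

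The first question of the design was whether a level changed with doxycycline in cells with wild type RBM47. In WT6 all 7 S100 genes with enough counts to be tested (a mean of at least 10 in each clone) rose with dose, by 0.25 to 0.55 log2 units per unit of log2(dose + 1), in a comparison where 29.2% of all genes were called higher and 28.3% lower. The rise was a step between 2.5 and 5 ng/ml, in which the counts of these genes went up 1.61 to 2.76 times, and none of the 7 passed the test once the WT6 libraries at 5 and 25 ng/ml were left out. In WT10 none of the 7 passed the test, against 10.2% of all genes called higher and 9.83% lower. In MUT3 none passed, against 0% in either direction. These tests share a spread that includes the WT6 step, and WT10 calls changed with the libraries fitted, as given below. RBM47 counts were higher in WT10 than in WT6 at 5 and 25 ng/ml but lower at 0, 1 and 2.5 ng/ml.

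**Figure D2:**
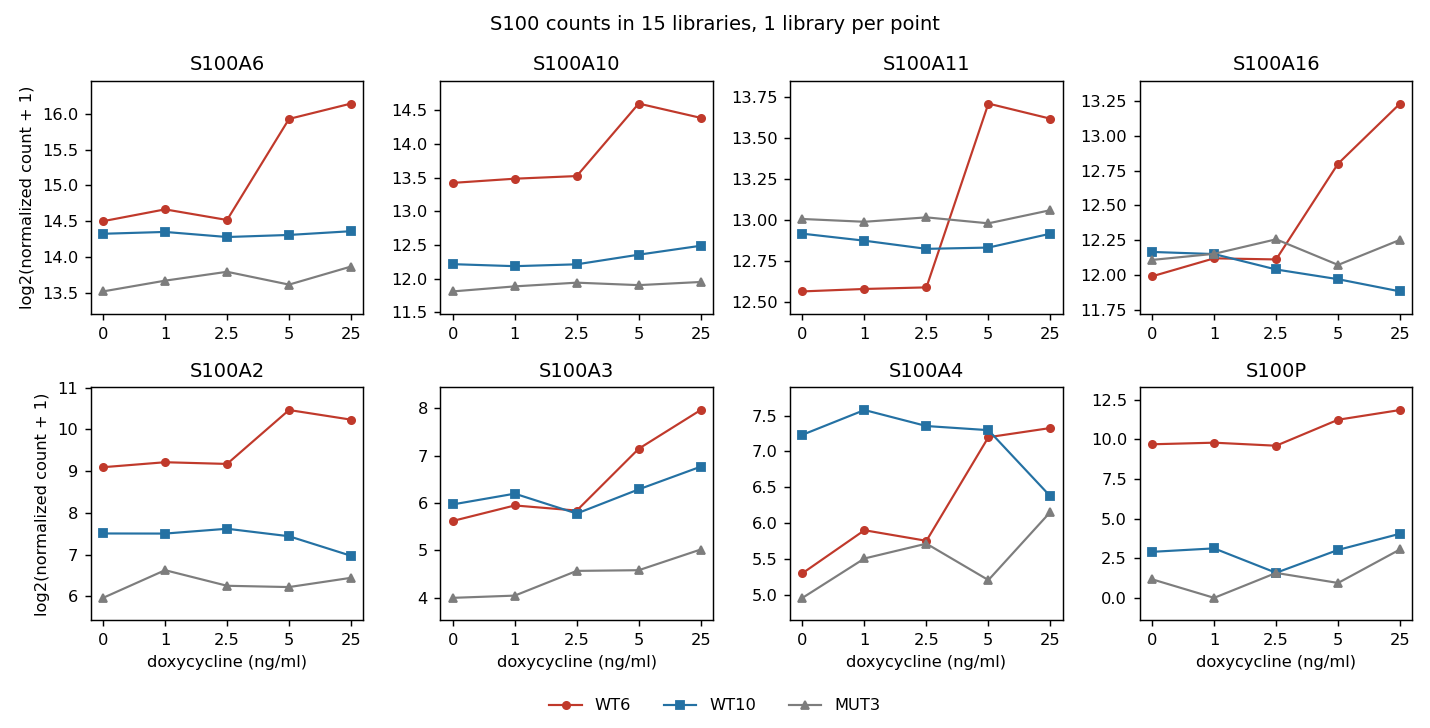
log2(normalized count + 1) of 8 S100 genes against doxycycline dose (ng/ml, evenly spaced categories), 1 library per point, with a separate vertical scale for each gene. In every panel WT6 is higher at 5 and 25 ng/ml than at 0 to 2.5 ng/ml, for S100A6 62449 and 72481 normalized counts against 23148 to 25960.

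S100A10, the partner of annexin A2 in a membrane-bound tetramer, had 10967, 11449, 11765, 24788 and 21403 normalized counts in WT6 at 0, 1, 2.5, 5 and 25 ng/ml. In WT10 it had 4755, 4657, 4747, 5242 and 5746, and in MUT3 3593, 3783, 3931, 3832 and 3959. Each WT6 library was above every WT10 library, and each WT10 library above every MUT3 library. The step from 2.5 to 5 ng/ml in WT6 was 2.11 times (95% exact counting interval 2.06 to 2.15). The WT6 slope was 0.25 ± 0.054 (SE, adjusted p = 0.00134, limma over 12644 genes), and the WT10 slope 0.066 ± 0.052 (adjusted p = 0.401).

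S100A6, or calcyclin, which binds the CACYBP ubiquitin-ligase adaptor and annexins, had 23148, 25960, 23419, 62449 and 72481 normalized counts in WT6 over the same doses. WT10 cells had 20485, 20853, 19849, 20253 and 21002, and MUT3 cells 11708, 12995, 14165, 12506 and 14903. The clones did not overlap, and within WT10 the highest and lowest libraries were close. The WT6 slope was 0.40 ± 0.063 (adjusted p = 0.00014) and the WT10 slope 0.0056 ± 0.062 (adjusted p = 0.964).

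S100A11, an annexin A1 partner linked to growth control in epithelia, was lowest in WT6 at low doses and highest there at high doses. WT6 counts were 6066, 6129, 6170, 13409 and 12580. WT10 counts were 7741, 7515, 7261, 7299 and 7740, and MUT3 counts 8236, 8140, 8293, 8087 and 8548. From 0 to 2.5 ng/ml the clones were ordered WT6, WT10, MUT3 with no overlap, and at 5 and 25 ng/ml WT6 lay above both. The WT6 slope was 0.27 ± 0.054 (adjusted p = 0.000734).

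S100A16, a widely expressed member of the family, had 4071, 4452, 4427, 7127 and 9608 counts in WT6. Unlike S100A10, S100A11 and S100A2 it was higher at 25 than at 5 ng/ml, by 1.35 times (exact counting interval 1.30 to 1.40). In WT10 it had 4596, 4547, 4212, 4013 and 3777 and in MUT3 4417, 4553, 4894, 4308 and 4881. Each WT10 library was thus lower than the one at the next smaller dose. The WT6 slope was 0.29 ± 0.034 (adjusted p = 1.82e-05) and the WT10 slope -0.065 ± 0.033 (adjusted p = 0.185).

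S100A4, which binds non-muscle myosin IIA and is tied to motility, had 38.4, 58.7, 52.9, 145.8 and 159.4 counts in WT6. WT10 had 149.3, 190.0, 162.6, 156.2 and 81.9, and MUT3 had 30.0, 44.4, 51.4, 35.8 and 70.2. WT10 was above the other clones up to 2.5 ng/ml, WT6 reached the WT10 level at 5 ng/ml, and at 25 ng/ml WT10 was the lower of the wild type clones. The WT6 slope was 0.43 ± 0.087 (adjusted p = 0.000847), and the WT10 slope was -0.19 ± 0.079 (adjusted p = 0.114). The negative WT10 slope rests on the 25 ng/ml library, since without it the slope was 0.0040.

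S100A2, a member found in epithelial cells, had 545.8, 592.9, 576.3, 1414 and 1205 counts in WT6. It had 180.7, 180.4, 195.5, 172.5 and 124.3 in WT10 and 61.3, 97.7, 75.1, 73.5 and 85.9 in MUT3. The 3 clones did not overlap. The WT6 slope was 0.29 ± 0.066 (adjusted p = 0.00198).

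S100A3, a zinc- and calcium-binding protein best known from hair cuticle, had the steepest WT6 slope of the 7, at 0.55 ± 0.063 (adjusted p = 1.28e-05). Its counts were 48.2, 60.7, 56.3, 140.3 and 247.9 in WT6, 61.7, 72.3, 53.9, 77.1 and 107.8 in WT10, and 15.01, 15.54, 22.73, 22.97 and 31.43 in MUT3. The 25 ng/ml library was the highest in each clone. At these counts the 25 ng/ml to untreated ratio was 5.14 in WT6 (exact counting interval 3.69 to 7.30), 1.75 in WT10 (1.25 to 2.46) and 2.09 in MUT3 (1.04 to 4.49).

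S100P, a secreted RAGE ligand first found in placenta, was abundant in WT6 alone of the 3 clones. It had 828.5, 888.4, 777.5, 2427 and 3715 counts in WT6, 6.49, 7.72, 1.99, 7.15 and 15.5 in WT10, and 1.25, 0, 1.98, 0.919 and 7.33 in MUT3. All WT6 libraries were far above those of the other clones, in which 49 and 11 reads were counted over 5 libraries. It fell below the count minimum in WT10 and MUT3 and was fitted with no filter on low values (19406 genes), where it was called higher with dose in WT6 (0.53 ± 0.078, adjusted p = 0.00012), as were 21.0% of genes. Without the WT6 libraries at 5 and 25 ng/ml the S100P slope in WT6 was -0.044 ± 0.093 (adjusted p = 0.997), with 0.27% of genes called in either direction. Its untreated level differed between WT6 and WT10 by 7.02 ± 0.96 log2 units (adjusted p = 1.80e-05), a call made in this direction for 22.3% of genes, and untreated WT6 cells had 127.6 times the WT10 count (exact counting interval 58.4 to 348.9). Its WT6 and WT10 slopes differed by 0.24 ± 0.34 (adjusted p = 0.710), and 3.56% of genes were called higher in that comparison. Without the WT6 pair the level difference was 7.40 ± 0.52 (adjusted p = 2.04e-08) and the slope difference -0.34 ± 0.20 (adjusted p = 0.803).

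S100A8 had 0 reads in all 15 libraries, each of which allows up to 3 reads (1.19 to 4.09 normalized counts). S100A9 had 2 reads in all, 1 in WT6 at 0 and 1 in WT6 at 2.5 ng/ml. Neither calprotectin subunit was detectable at this depth.

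The count of 7 of 7 tested S100 genes higher with dose in WT6 stands beside 29.2% of all 12644 genes called higher and 28.3% called lower in that comparison. The median WT6 slope of the 7 was 0.29, against 0.0053 over all genes. The S100 transcripts are short, with median lengths of 452 to 1051 bases. Of the 7 tested genes 6 are among the 20% of tested genes with the shortest transcripts. In that 20%, of 2422 genes, 1084 were called higher and 423 lower in WT6. Within their own length class the WT6 slopes of the 7 ranked from percentile 85.3 (S100A10) to 99.2 (S100A3). At 5 ng/ml in WT6 the median change from untreated was 0.31 log2 units for the shortest 20% and -0.39 for the longest 20%. The same medians at 25 ng/ml were 0.31 and -0.43. The upper quartile of the shortest 20% was 0.83 at 5 ng/ml and 0.79 at 25 ng/ml. The 7 S100 genes changed by 0.81 to 1.90 at 5 ng/ml (median 1.37) and by 0.96 to 2.34 at 25 ng/ml (median 1.24). When each library's trend with transcript length and GC content was removed, the 7 slopes went down to between 0.19 and 0.44 (median 0.20). All 7 still passed the test. The median slope of the shortest 20% went from 0.079 to 0.0017, which follows from the removal itself, since the length trend was taken out. The part of transcript length in the S100 rise was not tested. Without the WT6 libraries at 5 and 25 ng/ml the 7 slopes were between 0.014 and 0.25, and 0 of 7 passed, with 1.44% of all genes called. With the log2 RBM47 count in place of the dose 0 of 7 passed, and 0.0158% of all genes did.

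**Figure D3:**
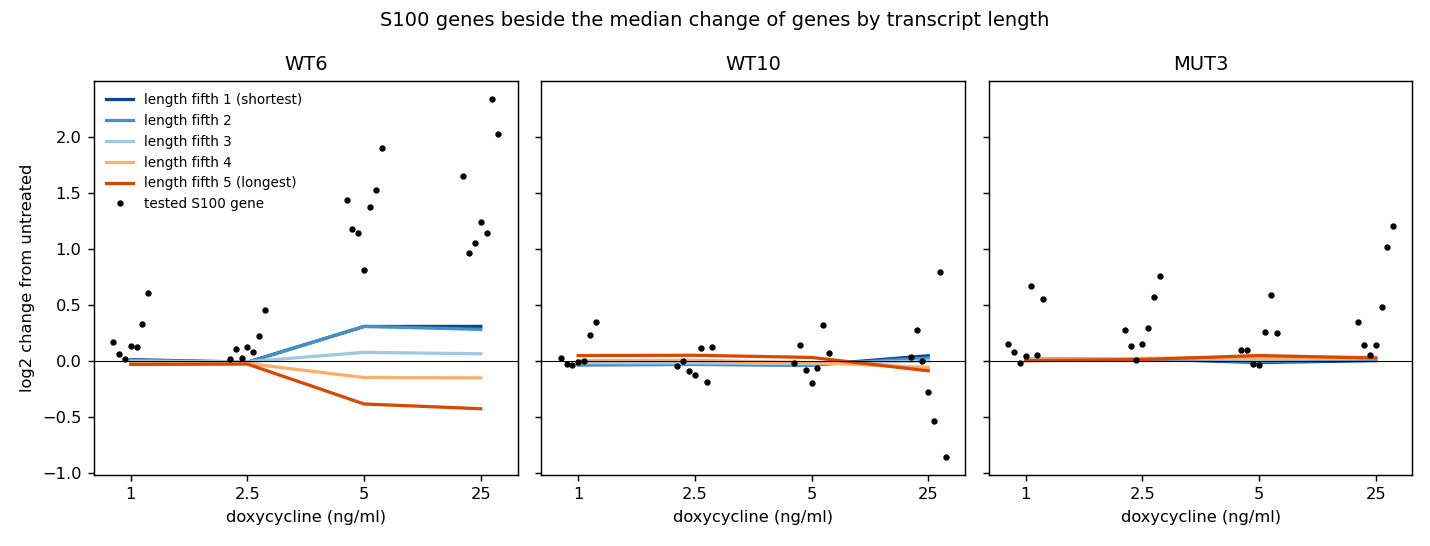
Change from the untreated library of the same clone (log2 units) at each doxycycline dose (ng/ml). Lines are the median over the tested genes in each of 5 equal classes of transcript length, and points are the 7 tested S100 genes. In WT6 the lines part at 5 ng/ml (0.31 for the shortest class, -0.39 for the longest) and the S100 points lie above them, between 0.81 and 1.90.

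In WT10 the slopes of the 7 tested S100 genes, none of which was called, ran from -0.19 for S100A4 to 0.18 for S100A3, with a median of 0.0012. Of the 7, 2 (S100A3 and S100A4) had an unadjusted p under 0.05, as did 4279 of the 12644 genes tested. The shared spread of the fit includes the WT6 step. Without the WT6 libraries at 5 and 25 ng/ml, 4 of 7 passed in WT10, where 38.9% of all genes then did: S100A3 (0.18, adjusted p = 0.0124) and S100A10 (0.067, adjusted p = 0.00286) rose, and S100A4 (-0.18, adjusted p = 0.0244) and S100A16 (-0.065, adjusted p = 0.00873) fell. Leaving out the WT6 library at 5 ng/ml alone gave 3 calls (S100A3, S100A4 and S100A10), with 32.8% of all genes called. Leaving out that at 2.5 ng/ml gave S100A3 alone (23% of all genes), and leaving out the untreated WT10 library gave S100A4 alone (16.3%). With length and GC trends removed S100A3 (adjusted p = 0.0435) and S100A16 (adjusted p = 0.0284) passed, in opposite directions, with 30.6% of all genes called.

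In MUT3 all 7 slopes were positive, between 0.011 and 0.23, and none passed the limma test, as for all genes (0% higher and 0% lower). None of the 7 had an unadjusted p under 0.05, which 295 of the 12644 genes did. edgeR and DESeq2 on the recovered reads also called none of the 7, with 1 and 8 genes called in all. S100A6, which had 11708 counts untreated and 14903 at 25 ng/ml, passed when MUT3 was fitted alone (0.061, adjusted p = 0.00233), where 1.39% of all genes were called.

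**Figure D4:**
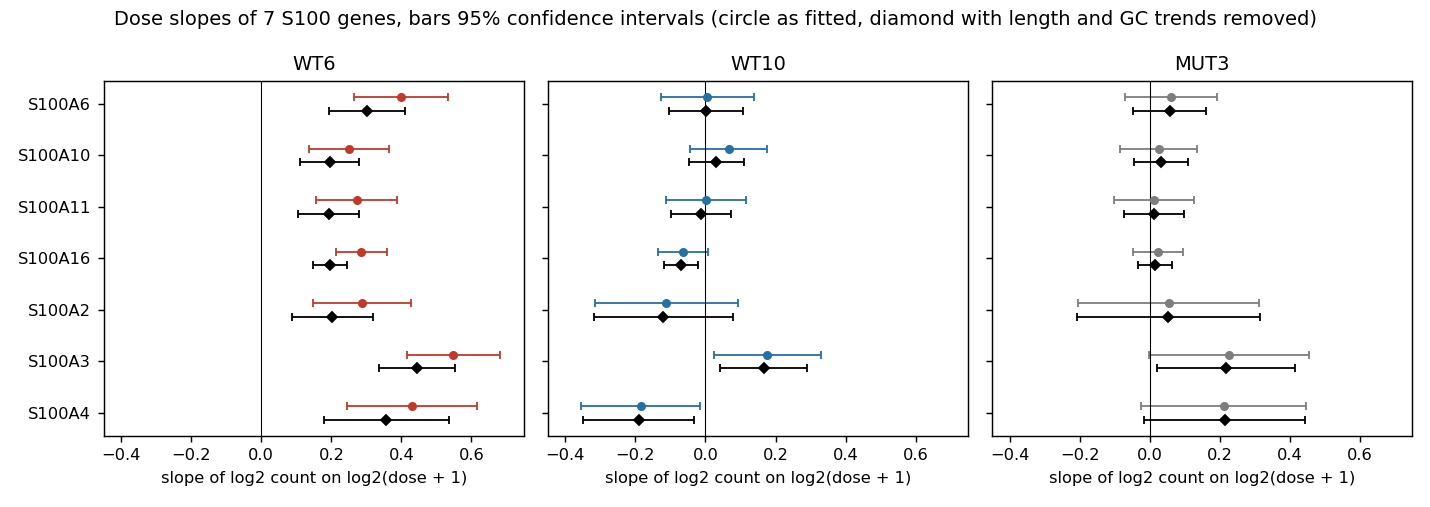
Slope of log2(normalized count + 1) on log2(dose + 1) for the 7 tested S100 genes in each clone, with 95% confidence intervals. Circles are the fit of all 15 libraries and diamonds the same fit with length and GC trends taken out of each library. Every WT6 interval lies above 0 in both, from S100A10 (0.25 as fitted, 0.19 with trends removed) to S100A3 (0.55 and 0.44).

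The dose slopes of WT10 and MUT3, wild type and mutant in clones of 1 line, were then compared. None of the 7 S100 genes was called, against 2.66% of genes with a higher slope in WT10 and 2.97% with a lower one. S100A4 came nearest, with a slope lower in WT10 by 0.40 ± 0.14 (95% confidence interval -0.69 to -0.11, adjusted p = 0.098). It was the 1 gene of the 7 with an unadjusted p under 0.05, which 2824 of the 12644 genes tested also had. The S100A4 difference passed without the untreated WT10 library (-0.53, adjusted p = 0.0379), without the WT6 library at 5 ng/ml (-0.39, adjusted p = 0.0200) and with DESeq2 (-0.41, adjusted p = 0.0329), but not with edgeR. In those 3 fits 6.64%, 17.9% and 8.43% of all genes were called, against 5.62% in the fit of all libraries. Without the WT6 libraries at 5 and 25 ng/ml, S100A4 and S100A16 (-0.088, adjusted p = 0.0181) were lower in WT10, with 24.2% of all genes called. For S100A6 and S100A11 the intervals of the difference were -0.24 to 0.13 and -0.17 to 0.15.

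Between the wild type clones, all 7 slopes were higher in WT6 than in WT10, and 6 of the differences were called. Of all genes 7.28% were called higher and 7.09% lower. The called differences ran from 0.27 for S100A11 (adjusted p = 0.0333) to 0.62 for S100A4 (adjusted p = 0.0122), and S100A10 (0.18 ± 0.075, adjusted p = 0.0991) was not called. WT6 and WT10 slopes are also those reported above, and this comparison shares their libraries. Without the WT6 library at 25 ng/ml none of the 6 passed (adjusted p = 0.0509 to 0.124), although their differences were then 0.34 to 0.89, and 0.577% of all genes were called. Without the untreated WT10 library 2 passed, with 0.467% of all genes called, and the differences for S100A2 and S100A6, which did not pass, were 0.45 and 0.39. Without the WT10 library at 25 ng/ml 2 passed (15.6% of all genes), and without that at 1 ng/ml 3 passed (6.84%). None passed without the WT6 libraries at 5 and 25 ng/ml, with 0.0475% of all genes called, and the S100A3 difference then turned to -0.054. S100A2 was called in 5 of the 15 fits that each left out 1 library, S100A11 in 9 and S100A16 in 14.

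Without doxycycline the wild type clones already differed. S100A2 was higher in WT6 than in WT10 by 1.42 ± 0.29 log2 units (adjusted p = 0.000644) and S100A10 by 1.22 ± 0.19 (adjusted p = 5.91e-05), against 30.8% of all genes called higher. S100A4 was lower in WT6 by 2.11 ± 0.33 (adjusted p = 5.37e-05) and S100A16 by 0.30 ± 0.12 (adjusted p = 0.0454), against 28.8% called lower. Those are fitted levels at dose 0, and the 2 untreated libraries alone gave WT6 to WT10 ratios of 3.02 for S100A2, 2.31 for S100A10, 0.257 for S100A4 and 0.886 for S100A16. The S100A16 call was kept in 2 of the 15 fits that each left out 1 library, was lost when length and GC trends were removed (-0.13, adjusted p = 0.181) and reversed in sign with dose on a linear scale. The calls for S100A2, S100A4 and S100A10 were kept in all 15. Without the WT6 libraries at 5 and 25 ng/ml S100A2 (1.49), S100A10 (1.27) and S100A4 (-2.12) kept their calls, S100A16 did not (-0.16, adjusted p = 0.0647), and S100A6 (0.23, adjusted p = 0.0137) and S100A11 (-0.30, adjusted p = 0.000352) were called too, with 65.0% of all genes called.

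WT10 and MUT3 also differed before induction. S100A4 (2.46 ± 0.36, adjusted p = 0.000157), S100A3 (1.85 ± 0.36, adjusted p = 0.00141), S100A2 (1.44 ± 0.40, adjusted p = 0.0134) and S100A6 (0.75 ± 0.22, adjusted p = 0.0216) were higher in WT10, against 14.3% of all genes called higher, and none of the 7 was lower, against 13.9%. The 2 untreated libraries gave WT10 to MUT3 ratios of 4.97 for S100A4 (exact counting interval 3.21 to 8.03), 4.11 for S100A3 (2.18 to 8.41), 2.95 for S100A2 and 1.75 for S100A6. S100A10, S100A11 and S100A16 did not pass. Leaving out the untreated MUT3 library left 2 calls. S100A3 and S100A4 kept their calls in all 15 such fits, S100A2 in 14 and S100A6 in 11. Without the WT6 libraries at 5 and 25 ng/ml these 4 kept their calls and S100A10 (0.31, adjusted p = 0.000376) was called too, with 46.7% of all genes called. For S100A2, S100A3, S100A4 and S100A6 the differences were larger in size than the change from 0 to 25 ng/ml in WT10. That change was -0.54, 0.80, -0.86 and 0.036 log2 units.

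Genes next to the S100 cluster were counted in the same comparisons. Of 26 other genes within 250000 bases of a chromosome 1 member, 11 were tested. Of these 11, 4 were higher and 1 lower with dose in WT6 (median slope 0.024), against 29.2% and 28.3% of all genes. In WT10 the counts were 0 higher and 1 lower, against 10.2% and 9.83%. Of 12 other genes named S100, 3 were tested. S100A13 rose in WT6, from 798.9 counts untreated to 2946 at 25 ng/ml (slope 0.44, adjusted p = 9.24e-06), and its WT10 counts stayed between 1246 and 1469. S100PBP, which encodes a binding partner of S100P and is no S100 protein, fell in WT6 (-0.18, adjusted p = 0.000121).

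All 15 genes of S100 binding partners were tested, of which 4 were higher and 8 lower in WT6 (median -0.061), against 29.2% and 28.3% of all genes, and 0 higher and 4 lower in WT10 (median -0.029), against 10.2% and 9.83%. Those that fell in WT10 included PLA2G4A (cytosolic phospholipase A2, slope -0.19), MYH9 (the myosin bound by S100A4, -0.13) and IQGAP1 (a scaffold protein, -0.11), and these 3 fell in WT6 too, by 0.23 to 0.29. ANXA2, named here for its tie with S100A10 and outside the naming rule, went from 30026 to 52406 counts in WT6 (slope 0.20, adjusted p = 0.000391). Its WT10 counts were 21316 untreated and 26597 at 25 ng/ml.

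Of 7 S100 receptor genes, 4 were tested. In WT6 AGER, which encodes RAGE (0.35, adjusted p = 0.00042), and BSG (0.094) rose, and ALCAM (-0.12) and TLR4 (-0.081) fell. Of all genes 29.2% were called higher and 28.3% lower in WT6. In WT10 TLR4 rose (0.14, adjusted p = 0.0123), and its slopes in the wild type clones differed (-0.22 for WT6 minus WT10, adjusted p = 0.0148). Of 16 other EF-hand calcium sensors 13 were tested. Of these 13, 5 were higher and 3 lower in WT6, against 29.2% and 28.3% of all genes. In WT10 the counts were 1 higher and 3 lower, against 10.2% and 9.83%. RCN1, a calcium-binding protein of the endoplasmic reticulum, rose in both (0.21 in WT6 and 0.26 in WT10), and RCN2 fell in both (-0.17 and -0.12). CALM3 (-0.097), 1 of the calmodulin genes, and EFHD2 (-0.092) fell in WT10. Of 7 fused-type S100 genes of the epidermal differentiation complex 2 were tested, and FLG, which encodes filaggrin, fell in WT6 (-0.32, adjusted p = 0.00764).

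Among the marker lists, summed counts of the 8 luminal and epithelial markers ran from 27467 to 60518 in WT6, 21488 to 34738 in WT10 and 22445 to 25130 in MUT3. These sums were mostly KRT8 and KRT18, while ESR1, PGR and CDH1 did not exceed 23.8 in any library. Of the 8 markers 5 were tested. KRT19 (0.32), KRT18 (0.29) and KRT8 (0.26) rose, ERBB2 (-0.13) fell and EPCAM was not called in WT6, against 29.2% of all genes higher and 28.3% lower. In WT10 KRT18 (0.16) and KRT8 (0.12) rose, ERBB2 (-0.11) fell and KRT19 and EPCAM were not called, against 10.2% and 9.83% of all genes. The 5 mesenchymal markers summed to 67233 to 85382 in WT6, 108152 to 124299 in WT10 and 117845 to 131703 in MUT3, mostly VIM. Of these 5, 4 were tested. FN1 fell in WT10 (-0.38) and in WT6 (-0.31), and ZEB1 (-0.29) and CD44 (-0.12) fell in WT6, against the same shares of all genes. SPARC, below the count minimum in WT6 and so not tested, had 1502 counts in WT10 untreated and 3214 at 25 ng/ml. VIM was not called in WT6 (-0.0022) or WT10 (-0.055), nor was CD44 in WT10 (17515 counts untreated and 18318 at 25 ng/ml). The 6 leukocyte markers, of which 2 were tested and none was called for a dose slope, summed to 2146 to 2939 in WT6, 3208 to 5356 in WT10 and 3250 to 3606 in MUT3, nearly all of it CD68. KRT5 and KRT14, the basal keratins, summed to at most 14.9. The part of these markers in the S100 results was not tested.

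The genes whose pattern over the 15 libraries was most like each S100 gene, by Pearson's r after subtracting each clone's mean, were TCEAL4 (0.995) and ATOX1 (0.992) for S100A11 and NDUFV2 (0.992) and ARPC2 (0.991) for S100A10. S100A6 was most like CST3 (0.988), S100A16 most like FAM127A (0.978) and TUBA1A (0.976), and S100A3 most like EBI3 (0.977) and PPP1R11 (0.963). S100A2 was most like C1orf53 (0.938) and AIMP2 (0.933), and S100A4 most like SENP8 (0.935) and S100A2 (0.910). Between the S100 genes r was lowest for S100A2 and S100A3 (0.623) and highest for S100A6 and S100A11 (0.976). These are descriptions over libraries that share the WT6 step.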

How the data were processed

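Poly(A)-selected TruSeq libraries were sequenced on a HiSeq as pairs of 75 bases. The authors used STAR for alignment to hg19 and HTSeq 0.5.4 for counting, then divided counts by DESeq size factors, so the deposited values are a normalized signal, not counts. Annotation and strand setting were not given in the sources used here. All values were whole multiples (100%, tolerance 0.01) of 1 read per library, and 5 tally rows were left out.

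Dose slopes came from limma 3.58.1 with precision weights (vooma) on log2(normalized count + 1), each clone having its own intercept and slope against log2(dose + 1), on 12644 genes with a mean of at least 10 in each clone. Adjusted p-values are Benjamini-Hochberg over all genes tested, with a threshold of 0.05, and cover only the scatter of these libraries. edgeR 4.0.16 and DESeq2 1.42.0 on recovered reads, TMM scaling and other settings were alternatives. Transcript lengths came from GENCODE 44 lifted to hg19, matched for 21449 genes (91.79%), and promoters from RefSeq (GRCh38.p14). Counting intervals are 95%. Named genes were the 10 S100 genes, RBM47, up to 4 genes a list by slope size among those called in WT10 and then WT6, and the 2 most alike per gene, of which some are not reported here. Members and lists were chosen with earlier results of these data known. The fit was tested on simulated data.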

Additional observations from a re-analysis of the deposited data

Results flagged for a closer look

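For 6 S100 genes the dose slope differed between the wild type clones by a test of the difference itself. WT6 minus WT10 was 0.40 for S100A2, 0.37 for S100A3, 0.62 for S100A4, 0.39 for S100A6, 0.27 for S100A11 and 0.35 for S100A16, in log2 units per unit of log2(dose + 1). In this comparison 7.28% of all genes were called higher and 7.09% lower. None of the 6 passed when the WT6 library at 25 ng/ml was left out (adjusted p = 0.0509 to 0.124, with 0.577% of all genes called), although their differences were then 0.34 to 0.89. None passed without the WT6 libraries at 5 and 25 ng/ml (0.0475% of all genes), where the S100A3 difference was -0.054 and the others 0.0097 to 0.43.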

How the results depend on the processing

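In WT6 the 7 S100 calls were unchanged with TMM scaling, a pseudocount of 0.5, edgeR, DESeq2, no weights, no filter, a linear dose, no 25 ng/ml libraries, WT6 fitted alone, length and GC trends removed and each library left out, but fell to 0 with the RBM47 count in place of the dose and to 0 without the WT6 libraries at 5 and 25 ng/ml (chosen after seeing the data). With that pair left out, with or without the filter, the calls were 4 for WT10, 2 for WT10 minus MUT3 and 0 for WT6 minus WT10 slopes. For WT6 minus WT10 slopes, of which 6 were called, the count was 2 with a linear dose, 0 with the RBM47 count and 0 without the 25 ng/ml libraries. Without those libraries WT10 minus MUT3 levels gave 2. WT10 slopes gave 2 calls with length and GC trends removed and 3 with WT10 alone, MUT3 slopes 1 with MUT3 alone, and WT10 minus MUT3 slopes 1 with DESeq2. Leaving out 1 library gave 0 to 3 calls for WT10, 0 to 1 for WT10 minus MUT3 and 0 to 7 for WT6 minus WT10 slopes, and 2 to 5 for WT10 minus MUT3 levels. Of all genes 0.0475% to 32.8%, 0% to 17.9%, 0.467% to 29.4% and 16.6% to 40.8% were then called, in the same order. Among results called in the fit of all libraries, signs turned for the S100A16 level (WT6 minus WT10) with a linear dose (0.031) and the S100A3 slope difference without the WT6 pair (-0.054). Uncalled results turned too when 1 library was left out. Among these were the WT10 slope of S100A4 (up to 0.0040) and the S100A6 level for WT6 minus WT10 (-0.14 to 0.19). The causes were not tested. Over these settings, leaving out 1 library included, 0.0158% to 62.4% of all genes were called for WT6 and 0.0475% to 38.9% for WT10. For MUT3 slopes the share was 0% to 1.39%, for WT10 minus MUT3 slopes 0% to 24.2% and for WT6 minus WT10 slopes 0% to 29.4%. WT10 minus MUT3 levels had 16.6% to 46.7%. The planned correlation with the RBM47 count was not run, and the fit on that count gives no untreated level. With 1 library a dose, precision rests on the scatter around the line. Per-kilobase orders changed between S100A3 and S100A4 in WT6 and between S100A2 and S100A4 in WT10 when the longest transcript was used.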
